A study of Homo sapiens with 12 samples.

Results

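The human prostate cancer line DU-145 grows without androgen and is a model of castration-resistant prostate cancer (CRPC). Its cells carried an inducible short hairpin RNA against MUC1 (tet-MUC1shRNA), and chromatin accessibility was measured by ATAC-seq after 7 days with vehicle (0.1% DMSO) or with doxycycline (DOX), which induces the hairpin. The 6 DU-145 libraries of the 12 in the series, 3 vehicle and 3 DOX, were chosen by their labels. One label field calls the vehicle cells untreated and another calls them DMSO-treated. Both groups carried the hairpin, no line with a control hairpin was analysed here, and the action of DOX and that of MUC1 silencing cannot be told apart in this contrast. The labels do not say that replicates came from separate cultures, although the paper's methods describe 3 biologically independent replicates per condition. The p-values measure the spread between these libraries. The table of 709366 bins of 100 bp was reduced to 79177 accessible regions, each read from its bin with the highest mean over the 6 libraries. All 79177 regions were tested.

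The bins of a library summed to 12370094 to 24001285 in vehicle and 16337380 to 25232000 with DOX. The median value of a region before normalization was 11.6 to 21.7 in vehicle libraries and 20.4 to 28.9 in DOX libraries. Normalized coverage, the unit used throughout, is the mean number of fragments over a bin after division by the effective library size and rescaling to the mean of the libraries. Replicates correlated across regions at r = 0.938 to 0.954 in vehicle and 0.953 to 0.962 with DOX, as a description, since regions are not independent. Promoter regions were present for 6 of 6 epithelial markers, 1 of 5 neuroendocrine markers (SYP), 2 of 3 fibroblast markers (COL1A1 and DCN) and 0 of 3 leukocyte and 0 of 3 endothelial markers. Among prostate luminal markers, TMPRSS2 had one, but KLK3, KLK2, HOXB13 and FOXA1 did not. The mean promoter coverage of the epithelial markers was 7.99 to 120 in vehicle and 14.8 to 146 with DOX.

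In ATAC-seq, the Tn5 transposase inserts adapters where DNA is free of nucleosomes, at promoters and at distal elements such as enhancers. Promoters of widely expressed genes are rich in GC and open in most cells, whereas enhancers vary with cell state. MUC1-C, the transmembrane subunit of MUC1, is an oncoprotein studied for its action on chromatin regulators. AP-1 is a family of FOS and JUN dimers that bind enhancers, and TEAD factors are the DNA-binding partners of YAP in the Hippo pathway. NKX2 homeobox and forkhead factors are lineage regulators in epithelia.

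The sequences shown first are 300-bp windows, from hg38 (GRCh38), around the highest bins of distal regions with large changes, together with the promoter region that changed most. Capitals mark the AP-1 word TGACTCA, the NKX2 word CACTTGA and the forkhead word TGTTTAC on either strand. A match is a description of letters, not a binding site. Both opening windows come first, and each lies in an intron of the gene named.
DYNC1I1, chr7:95776701-95777000, plus strand: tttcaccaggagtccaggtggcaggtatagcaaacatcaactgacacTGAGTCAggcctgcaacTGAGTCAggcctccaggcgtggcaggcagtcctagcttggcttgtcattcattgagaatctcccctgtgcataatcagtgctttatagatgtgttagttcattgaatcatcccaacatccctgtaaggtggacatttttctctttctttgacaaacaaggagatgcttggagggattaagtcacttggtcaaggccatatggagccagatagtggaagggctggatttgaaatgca
SLC35F4, chr14:57930501-57930800, plus strand: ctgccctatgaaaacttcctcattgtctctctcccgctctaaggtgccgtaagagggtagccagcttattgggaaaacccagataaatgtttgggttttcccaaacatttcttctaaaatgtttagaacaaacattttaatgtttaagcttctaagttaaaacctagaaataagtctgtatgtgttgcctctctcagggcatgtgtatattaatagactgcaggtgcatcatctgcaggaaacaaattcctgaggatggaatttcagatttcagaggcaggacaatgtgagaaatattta
The DYNC1I1 window held 2 AP-1 words, and the SLC35F4 window held none of these words. The next 3 windows were closing. They lie in introns of LNX1, KITLG and RFTN1, and the RFTN1 window is centred near 1 of the TSSs of that gene.
LNX1, chr4:53627701-53628000, plus strand: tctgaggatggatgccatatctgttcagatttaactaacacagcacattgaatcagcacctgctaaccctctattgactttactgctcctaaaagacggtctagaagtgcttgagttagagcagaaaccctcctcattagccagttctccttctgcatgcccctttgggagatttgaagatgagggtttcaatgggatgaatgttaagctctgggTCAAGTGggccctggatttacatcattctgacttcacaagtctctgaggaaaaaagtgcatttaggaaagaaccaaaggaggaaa
KITLG, chr12:88541601-88541900, plus strand: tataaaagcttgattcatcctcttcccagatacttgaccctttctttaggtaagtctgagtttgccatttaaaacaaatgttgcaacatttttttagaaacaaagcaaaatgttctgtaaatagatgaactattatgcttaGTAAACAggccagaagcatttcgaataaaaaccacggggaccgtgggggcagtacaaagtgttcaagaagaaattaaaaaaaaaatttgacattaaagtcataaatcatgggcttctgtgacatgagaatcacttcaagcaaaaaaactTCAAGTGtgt
RFTN1, chr3:16483001-16483300, plus strand: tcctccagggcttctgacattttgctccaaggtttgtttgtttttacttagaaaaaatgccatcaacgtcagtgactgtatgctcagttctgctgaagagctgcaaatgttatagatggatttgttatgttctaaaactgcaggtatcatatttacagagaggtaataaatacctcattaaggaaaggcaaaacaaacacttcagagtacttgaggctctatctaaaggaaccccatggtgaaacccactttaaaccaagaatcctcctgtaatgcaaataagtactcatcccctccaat
The LNX1 window held 1 NKX2 word and the KITLG window 1 NKX2 and 1 forkhead word. The RFTN1 window held none of these words.

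With DOX, 9204 regions were opening (11.6% of those tested) and 3650 were closing (4.61%), which means a change of 2-fold or more and a Benjamini-Hochberg adjusted p under 1e-05 in edgeR's quasi-likelihood test. Opening regions were thus 71.6% of the called regions. In the same test with another scaling of the libraries, this split was 70.3% with RLE factors, 78.7% with library totals, 58.1% with loess offsets and 52.3% after removal of each library's GC trend. It was 60.8% in the DESeq2 Wald test, which changes the test as well as the scaling. The median change over all regions was 0.04 (log2), and moved to 0.17 with library totals. At the fold threshold, the smallest opening change inside and the largest outside were both 1.0 (log2), and 6843 regions with higher coverage and 1952 with lower coverage had a fold change of at least 2 without passing the p threshold.

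Opening regions were mostly weak in vehicle cells. Their median coverage was 6.68 in vehicle and 30.7 with DOX, with a median log2 change of 2.15. Closing regions had a median coverage of 38.2 in vehicle and 9.12 with DOX, with a median log2 change of -1.98. The authors' peak lists, made for each library from the same reads, had no peak in any vehicle library and a peak in all 3 DOX libraries at 4241 opening regions (46.1%). The converse, peaks in all 3 vehicle libraries and none with DOX, held at 1209 closing regions (33.1%). A peak was called in all 6 libraries at 28.8% of opening, 48.5% of closing and 61.7% of uncalled regions. The libraries hold bulk cells, and fewer cells with an open region cannot be told apart from less accessibility per cell.

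Promoters and distal sites differed. Of 14475 promoter regions, within 1 kb of a protein-coding transcription start site (TSS), 206 were opening (1.42%) and 182 closing (1.26%). Of 48319 distal regions, over 3 kb from any TSS, 7324 were opening (15.2%) and 2783 closing (5.76%). The share of opening regions increased with each step of distance from a protein-coding TSS, from 1.42% within 1 kb through 8.53%, 10.8%, 13.1% and 14.8% to 19.1% beyond 100 kb. The closing share increased to 5.90% between 30 and 100 kb and was also 5.90% beyond 100 kb. The median log2 change was -0.37 at promoters, with a median coverage of 89.7 in vehicle and 70.5 with DOX, and 0.24 at distal regions.

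**Figure D1:**
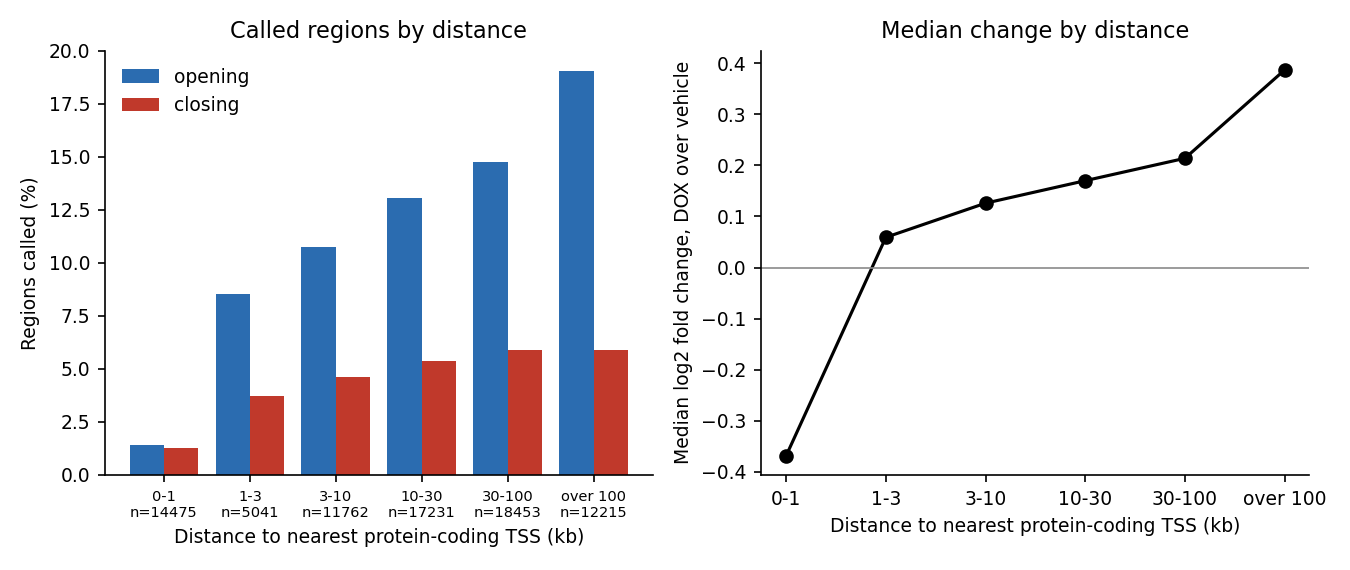
Left, percent of regions called opening or closing (bars, from 0) in 6 bins of distance to the nearest protein-coding TSS, with the number of regions under each bin. Right, median log2 fold change of DOX over vehicle in the same bins, from -0.37 within 1 kb to 0.39 beyond 100 kb.

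Promoter regions took 47.4%, 46.5% and 46.6% of the summed coverage of the vehicle libraries and 37.5%, 38.8% and 38.4% of that of the DOX libraries. The groups did not overlap, with 46.8% ± 0.498 (SD, n = 3) in vehicle and 38.2% ± 0.692 (SD, n = 3) with DOX, a difference of -8.60 points. The exact two-sided permutation test gave p = 0.1, the smallest value that 3 against 3 libraries allow. Base composition moved with distance, since the median GC content was 67.0% at promoters and 45.7% at distal regions. Among regions of 40 to 50% GC, 12.3% of 996 promoters and 17.9% of 24424 distal regions were opening, and 4.22% and 6.38% were closing. At 60% GC or more, the opening shares were 0.137% and 1.71%. With the GC trend removed, the promoter median was -0.14 and the distal median 0.02, beside -0.04 for all regions, 1.12% of promoters and 9.23% of distal regions were opening, and 1.24% and 8.34% were closing. Within the distal class, the opening share was 15.4% in introns, 15.2% between genes and 11.1% in exons.

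The opening promoter regions with the largest changes lay at genes with no common role. At EFL1, a GTPase of ribosome maturation, coverage 54 bp from the TSS (chr15:82160101-82160200, intron) was 17.9, 16.0 and 7.19 with vehicle and 134, 107 and 117 with DOX, a log2 change of 3.02 (SE 0.19). At FERMT2, which encodes the integrin activator kindlin-2, it was 1.84, 8.51 and 5.54 against 47.7, 54.9 and 48.9 (chr14:52918701-52918800, intron), a log2 change of 3.18 (SE 0.27). Every DOX library was above every vehicle library at both, as the choice of the named regions required. The EFL1 promoter region with the highest coverage was a different one and was not called (log2 change -0.20). ARHGAP28, a GTPase-activating protein, had 13.6, 6.52 and 5.11 against 95.8, 82.0 and 77.2 (log2 change 3.34, SE 0.23), and MFSD1, a lysosomal transporter, 5.26, 5.77 and 9.29 against 64.7, 67.7 and 62.1 (3.27, SE 0.24). RANBP3L, a Ran-binding protein, had 5.64, 5.65 and 4.19 against 72.7, 60.5 and 57.9 (3.49, SE 0.26). KRTAP4-6, a hair keratin-associated protein of a multigene family whose copies can share reads, had 2.70, 0.470 and 4.75 against 48.6, 48.8 and 56.6 (4.39, SE 0.33). In 5 of these 6 promoter windows, all but that of FERMT2, the AP-1 word was present. A second MFSD1 region, 21.3 kb from the TSS, was also among the largest distal changes.

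Closing promoters included that of ERBB2, the HER2 receptor tyrosine kinase. The region 144 bp from one of its TSSs (chr17:39703001-39703100, intron) had a coverage of 61.6, 74.0 and 63.8 with vehicle and 6.63, 10.9 and 5.76 with DOX, a log2 change of -3.04 (SE 0.22). RFTN1, which encodes the lipid raft protein raftlin, had the largest promoter change, from 114, 107 and 127 to 4.10, 5.07 and 4.30 (chr3:16483101-16483200, intron, log2 change -4.58, SE 0.22). The groups did not overlap at either gene, as the choice of the named regions required. SEMA4B, a transmembrane semaphorin, had 114, 111 and 95.0 against 21.9, 16.4 and 15.9 (-2.60, SE 0.17), and LZTFL1, a regulator of ciliary protein traffic, 99.9, 112 and 94.1 against 11.1, 18.6 and 14.8 (-2.77, SE 0.18). A stronger promoter region of SEMA4B was not called, with 262, 287 and 285 against 144, 177 and 153 (-0.80). TNNC2, the troponin C of fast skeletal muscle, had 57.4, 63.7 and 57.9 against 6.62, 6.45 and 7.77 (-3.09, SE 0.23), and KIAA0319L, a membrane protein, 106, 97.3 and 118 against 14.5, 16.4 and 12.8 (-2.84, SE 0.18). The AP-1 word was in 2 of these 6 windows, those of TNNC2 and LZTFL1, and the forkhead word in that of KIAA0319L. The 12 promoters were taken from 63 opening and 107 closing ones with a mean coverage of at least 50 in the higher group. Each can lie at any protein-coding TSS of its gene, and other promoter regions of the gene may differ.

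Some named distal changes were larger than any named promoter change, but they were picked from a larger pool of regions. In an intron of SLC35F4, a solute carrier, 64.6 kb from its TSS, coverage was 0, 1.64 and 0 with vehicle and 70.6, 76.1 and 78.2 with DOX (chr14:57930601-57930700). In an intron of DYNC1I1, a dynein intermediate chain, it was 2.06, 2.11 and 0 against 66.4, 56.3 and 53.4 (chr7:95776801-95776900). Both sites, whose sequences are printed above, had at most 2.11 in any vehicle library and at least 53.4 in any DOX library. The other named opening sites, in introns of LYST, SH3BP5L and ENSG00000250803 and between genes near PMFBP1 and MFSD1, ranged over 0 to 4.60 without and 50.8 to 91.6 with DOX. Fitted changes against values near 0 depend on the prior count and are no bound.

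Closing distal sites reached values as low. In an intron of LNX1, a ubiquitin ligase for NUMB (chr4:53627801-53627900), coverage was 72.1, 75.7 and 65.8 with vehicle and 1.61, 1.75 and 3.04 with DOX. The DOX values lay under every vehicle value there, as the choice of the named regions required. Near GUCA2B, which encodes uroguanylin, coverage was 57.7, 60.7 and 65.0 against 1.85, 0.995 and 0.366, and in an intron of GARNL3, with the glucose transporter SLC2A8 as the nearest gene, 115, 116 and 125 against 5.33, 6.85 and 3.20. The sites near SMG1, a kinase of nonsense-mediated decay, SNTB1, a syntrophin, and in TLN2, a talin, ranged over 43.7 to 71.4 without and 0.307 to 3.72 with DOX. The distal sites were taken from 1251 opening and 789 closing ones.

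**Figure D2:**
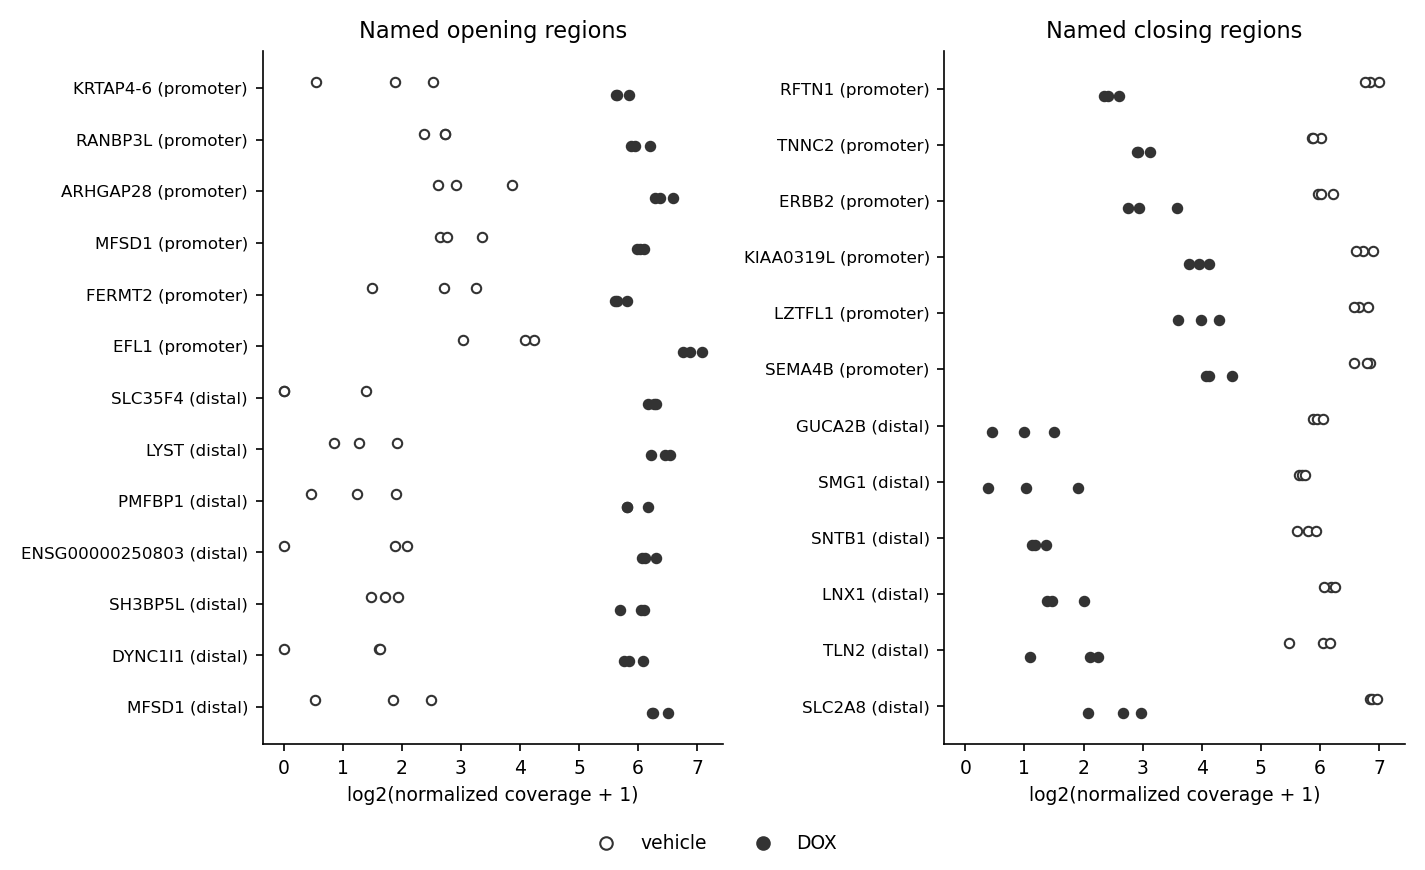
Log2 of normalized coverage plus 1 in each of the 3 vehicle (open) and 3 DOX (filled) libraries, for 13 named opening regions (left) and 12 named closing regions (right), each under the name of its nearest gene. The groups do not overlap at any of them, as the choice of the regions required.

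Opening and closing distal regions differed in their sequence. The windows of 300 bp were searched on both strands for 20 motifs, namely AP-1 (TGACTCA), CRE (TGACGTCA), TEAD (GGAATG), RUNX (TGTGGTT), ETS (CCGGAAGT), forkhead (TGTTTAC), that of GATA factors (AGATAA), E-boxes (CAGGTG and CAGCTG), homeobox (TAATTA), NKX2 (CACTTGA), NFI (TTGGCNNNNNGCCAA), GC box (GGGCGGG), the box of NF-Y (CCAAT), steroid receptor (GNACANNNTGTNC), SOX (ACAATGG), interferon response (GAAANNGAAA), OCT (ATGCAAAT), CEBP (TTGCGCAA or TTGCATAA) and the CTCF core (CCNNNAGNGGGC or CCNNNAGNTGGC). Matches of different motifs could overlap.

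The AP-1 word was in 48.0% of opening, 20.7% of closing and 36.3% of uncalled distal regions, and in 30% of all 79177 regions. The TEAD word was in 32.0%, 21.1% and 23% (21.3% of all regions). Both words were thus more frequent in opening regions. The NKX2 word was in 18.0% of closing, 7.03% of opening and 7.60% of uncalled regions (6.75% of all), and the forkhead word in 13.1%, 7.03% and 7.15% (6.20% of all). The GATA word was in 19.0% of opening and 22.4% of closing against 15.9% of uncalled regions (13.6% of all), and the RUNX word in 11.1% and 13.5% against 9.16% (8.05% of all). The CEBP words were in 2.95% of closing and 0.956% of opening against 1.51% of uncalled regions (1.28% of all). The CTCF core was in 12.5% of uncalled but in only 1.56% of opening and 2.80% of closing distal regions (10.7% of all), and the GC box in 4.58%, 1.22% and 2.30% (13.9% of all). At a matched GC content of 40 to 50%, the AP-1 word was in 47.7% of opening, 21.1% of closing and 40.4% of uncalled distal regions, and the NKX2 word in 7.98%, 19.6% and 8.99%. The GATA word was then in 18.3%, 23.6% and 18.1%, so that its share in opening regions was close to that in uncalled ones. The GC box was in 0.937%, 1.03% and 1.28%, a much smaller gap than without matching, and the CTCF core in 1.17%, 2.05% and 9.58%. At promoters, the AP-1 word was in 51.0% of the 206 opening, 12.1% of the 182 closing and 6.31% of the uncalled regions.

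**Figure D3:**
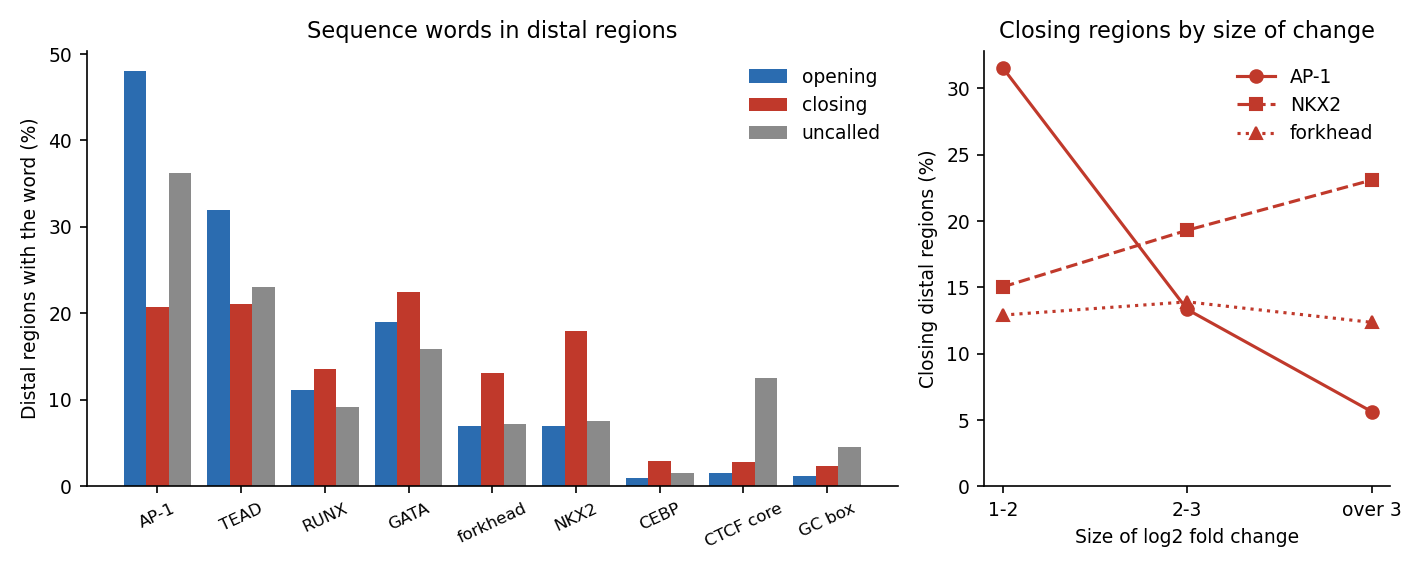
Left, percent of opening, closing and uncalled distal regions (bars, from 0) whose 300-bp window holds each motif word on either strand. Right, percent of closing distal regions with the AP-1, NKX2 or forkhead word by size of the log2 change, where the AP-1 share is 31.5%, 13.3% and 5.64% and the NKX2 share 15%, 19.3% and 23.1% in the 3 classes.

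The words of closing regions varied with the size of the change. In closing distal regions with a log2 decrease of 1 to 2 (n = 1363), 2 to 3 (n = 870) and over 3 (n = 550), the AP-1 word was in 31.5%, 13.3% and 5.64%, whereas the NKX2 word was in 15%, 19.3% and 23.1%. The forkhead share was 12.9%, 13.9% and 12.4%. In opening regions the AP-1 share also decreased with the size of the change, at 52.9%, 46.8% and 40.1%. Pairs of words differed as well. Of the 4220 distal regions with both the AP-1 and the TEAD word, 23.2% were opening and 2.37% closing, against 10.7% and 7.52% of the regions with neither. Of the 306 with both the NKX2 and the forkhead word, 22.2% were closing and 8.82% opening. The NKX2 word without the AP-1 word came with 17.0% closing, and with the AP-1 word with 6.41%. Since regions share libraries and base composition, these shares are descriptions with no test.

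The motifs were chosen with earlier results of these data known. A count of all words in the same regions is therefore no independent check of them. Of all 8192 words of 7 letters, counted on both strands, TGACTCA had the largest excess in opening over uncalled distal regions, followed by TGAATCA (23.5% against 11.8%) and TGACTAA (19.1% against 8.95%), which differ from it by 1 letter. In closing regions TGACTCA ranked last. The NKX2 word CACTTGA ranked first there, followed by CTCTTGA (13.3% against 6.01%) and CACTTCA (13.9% against 6.88%), and the reverse complement of the forkhead word, GTAAACA, had rank 10. The word with the largest deficit in opening regions was AGAGGGC (4.21% against 10.7%), which is part of the CTCF core.

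With libraries as the replicates, the regions with the AP-1 word took 42.7%, 42.4% and 42.4% of distal coverage in vehicle and 46.4%, 46.2% and 46.1% with DOX. The difference was 3.73 points, from 42.5% ± 0.157 to 46.2% ± 0.148 (SD, n = 3), with an exact two-sided permutation p of 0.1. The share of regions with the TEAD word was 25.3%, 25.4% and 25.3% against 27.5%, 27.5% and 27.4%. Lower shares with DOX were found for the NKX2 word (9.41%, 9.42% and 9.33% against 8.06%, 8.01% and 8.02%), the forkhead word (8.37%, 8.40% and 8.37% against 7.68%, 7.58% and 7.51%) and the CTCF core (8.94%, 8.78% and 8.95% against 7.46%, 7.62% and 7.78%). The groups did not overlap for any of these 5 words, and each gave the smallest possible p of 0.1, as did 19 of the 20 motifs computed. The differences are thus read by their size, and no adjusted p can pass 0.05 here. They also hold the shift in the calls above and are not independent of it.

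Neighbouring regions moved together over short distances. The changes of adjacent regions correlated at r = 0.34 within 2 kb (6829 pairs), 0.20 at 2 to 5 kb, 0.16 at 5 to 10 kb, 0.09 at 10 to 25 kb and 0.02 beyond 100 kb, as a description, since neighbours share fragments and libraries. Within 2 kb of an opening region, 29.4% of neighbours were opening and 1.80% closing, whereas within 2 kb of a closing region 20.6% were closing and 3.98% opening. At 50 to 100 kb the corresponding shares were 14.6% opening beside opening and 5.78% closing beside closing regions.

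**Figure D4:**
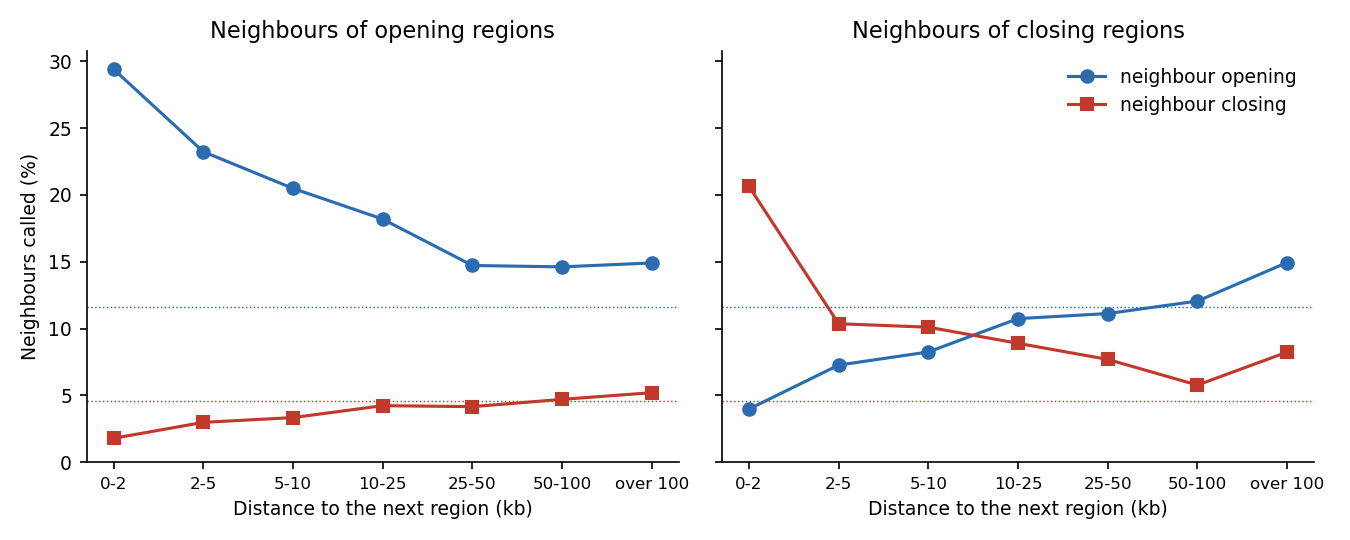
Percent of the next regions called opening or closing, by distance from an opening region (left) and from a closing region (right). Dotted lines mark the 11.6% opening and 4.61% closing among all regions, and the neighbours of the same direction are most frequent within 2 kb.

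Most called regions stood alone. With gaps of at most 25 kb, 66.1% of opening and 78.8% of closing regions had no neighbour of the same direction, and clusters of at least 4 held 431 opening regions in 97 clusters (4.68%) and 42 closing regions in 9 clusters (1.15%). The closing cluster with the largest summed change lay in introns of KITLG, which encodes stem cell factor, the ligand of the KIT receptor (chr12:88519601-88567000). All 6 regions in this span of 47.4 kb were closing. The sum over them was 252, 304 and 255 with vehicle and 58.5, 52.4 and 63.6 with DOX. The largest members were at 26.4 kb from the TSS, with 62.7, 87.5 and 75.7 against 10.6, 7.92 and 14.3, and at 60.4 kb, with 56.9, 66.3 and 62.0 against 7.20, 2.15 and 3.02. The region at 38.7 kb, printed above, had 31.5, 32.1 and 33.0 against 1.08, 1.54 and 0. The KITLG promoter itself was not called (log2 change -0.20, adjusted p = 0.145).

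In NCOA7, a nuclear receptor coactivator gene, 6 of 10 regions within 25.7 kb were closing, including a promoter with 86.0, 97.1 and 112 with vehicle and 34.4, 33.6 and 32.2 with DOX. At SEMA4B, 5 of 9 regions were closing, among them 2 promoters, and a distal intron region 10.2 kb from a TSS went from 74.2, 55.7 and 57.3 to 1.52, 5.34 and 5.55. Both loci lost coverage at promoters and at distal regions. A cluster with TMEM63B, a mechanosensitive channel gene, as the nearest gene held 5 closing and 1 opening of 15 regions, 42.1 to 98.0 kb from its TSS. There, the strongest regions of the span were not called, and its opening region had 4.51, 18.1 and 14.4 with vehicle and 32.6, 38.6 and 32.8 with DOX.

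The opening cluster with the most regions, 7 of 13 in 52.9 kb, lay in and just before ITGA2, the integrin alpha-2 subunit of the collagen receptor (chr5:52983801-53036700). Its strongest member, 1.40 kb before the TSS, had 108, 114 and 105 with vehicle and 239, 229.7 and 232 with DOX, and a region 30.1 kb from the TSS had 8.78, 15 and 11.4 against 68.2, 57.4 and 58.5. One of the uncalled members of this span had lower coverage with DOX, with 129, 112 and 106 against 91.1, 70.2 and 82.0 (log2 change -0.54). In and beyond MAN2A1, a Golgi mannosidase, 6 of 7 regions were opening, and the one at 188 kb from the TSS had 1.46, 4.01 and 3.19 against 99.9, 81.9 and 93.2 (log2 change 4.81, SE 0.27). Between genes 341 to 359 kb from ACTBL2, an actin-like gene, 6 of 6 were opening, with 0.898 to 27.6 without and 16.4 to 54.7 with DOX. Upstream of PTPN14, a phosphatase that binds YAP, 6 of 7 were opening, and the nearest, 6.65 kb from the TSS, had 10.4, 11.8 and 11.3 against 77.9, 58.2 and 61.7. The sixth was nearer to CENPF. The AP-1 word was in 5 of these 6, against 3 of 7 at ITGA2, 3 of 6 at MAN2A1 and 1 of 6 near ACTBL2. It was in 48.0% of all opening distal regions. Of these 4 clusters, 3 were on chromosome 5, where 15% of all regions were opening.

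By gene, the regions were summed over those with a given protein-coding gene as the nearest TSS within 100 kb. Opening regions had 4407 such nearest genes and closing regions 2263, and 976 genes were nearest to both. Of 8952 neighbourhoods with at least 3 regions, 280 were opening (3.13%) and 24 closing (0.268%), with a change of 2-fold or more and a Benjamini-Hochberg adjusted p under 0.05 in edgeR's quasi-likelihood test. This split rested in part on the other regions of a neighbourhood, since with distal regions alone 293 of 5170 were opening and 155 closing. The opening neighbourhood with the largest change among those named was that of SYT14, a synaptotagmin family gene, with a sum of 22.9, 19.4 and 25.3 with vehicle and 131, 144.6 and 129 with DOX (log2 change 2.62, SE 0.15). That of DIO2, the deiodinase that activates thyroid hormone, had 204, 185 and 203 against 574, 474 and 511 (1.40, SE 0.08), with 5 of 9 regions opening. Those of POU5F1B, a retrogene of POU5F1 (97.2, 111 and 126 against 363, 329.6 and 351), MATN2, a matrix protein (236, 213 and 193 against 559, 525 and 541), and MRPL15, a mitochondrial ribosomal protein (192, 212 and 221 against 574, 521 and 554), all lay on chromosome 8. The 3 others were CTAGE1, ENSG00000250803 and EFL1, with log2 changes of 1.53, 1.86 and 1.03. MRPL15 passed under 2-fold with distal regions alone (0.93) and with the mean over the bins of a region (0.99). At EFL1, 5 of 13 regions were opening.

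Closing neighbourhoods were fewer. That of DNAJB9, an endoplasmic reticulum co-chaperone, had a sum of 113, 98.5 and 94.2 with vehicle and 15.5, 13.1 and 20.9 with DOX (log2 change -2.61, SE 0.17), from 3 distal regions. That of COL2A1, type II collagen, had 283, 269 and 295 against 100.6, 114 and 106 (-1.38, SE 0.09), and that of HDC, histidine decarboxylase, 253, 240.0 and 247 against 102, 97.1 and 99 (-1.31, SE 0.09). Every DOX library was below every vehicle library in these 3. Of their 3 regions each, 1 was closing at DNAJB9, 1 at COL2A1 and 2 at HDC. GOLPH3 (-1.01), SMC3, a cohesin subunit (-1.04), KITLG (-1.09), CSF3R, the G-CSF receptor (-1.15), and CRYGN, a crystallin (-1.28), were the others with the smallest p. In this order, 3 of 14, 2 of 5, 6 of 8, 1 of 5 and 3 of 5 regions were closing, and SMC3 had 1 opening region. GOLPH3 passed under 2-fold without vehicle replicate 2 (-0.93), DOX replicate 1 (-0.99) or DOX replicate 3 (-0.999), and with the mean over bins both GOLPH3 and SMC3 were at -0.998.

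Most of these neighbourhoods had no called promoter. A promoter region was lacking in 63.6% of opening and 75% of closing neighbourhoods, against 18.1% of all. Of the 102 opening neighbourhoods with one, 15 had an opening promoter (14.7%), against 0.764% of the promoters in all neighbourhoods, and 0 of the 6 in closing neighbourhoods was closing. A promoter region enters the sum of its neighbourhood, so that these shares are not independent of it. The median promoter change was 0.11 in opening, -0.54 in closing (6 promoters) and -0.40 in all neighbourhoods. Across 4061 genes with a promoter region and at least 3 distal regions, promoter and mean distal changes correlated at r = 0.05, as a description, since genes are not independent. Of 94 genes with a promoter region and at least 5 opening regions, 4 had an opening promoter, and of 10 with at least 5 closing regions 2 had a closing one.

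Over 2 Mb windows, 386 of 1315 were opening (29.4%) and 385 closing (29.3%), with a Benjamini-Hochberg adjusted p under 0.05 in edgeR's quasi-likelihood test and no fold threshold. The changes were small, with an SD of 0.23 (log2) over all windows, and the 8 windows with a fold change of at least 2 were all opening. The window with the smallest p, at 70 to 72 Mb of chromosome 17, holds the potassium channel genes KCNJ16 and KCNJ2. Its sum was 622, 626 and 648 with vehicle and 1396, 1340 and 1305 with DOX, a log2 change of 1.09 (SE 0.04), with 12 of 30 regions opening and 0 closing. The window around DNAH5, an axonemal dynein (chromosome 5, 12 to 14 Mb), had 295, 310.1 and 318 against 835, 751 and 739 (1.33, SE 0.07). That around BRINP3, a neural gene (chromosome 1, 190 to 192 Mb), had 116, 129 and 119 against 354, 307 and 339 (1.43, SE 0.08). Few genes lie in these 3 windows.

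The closing windows with the smallest p had lower folds and more genes. At 126 to 128 Mb of chromosome 2, with BIN1 and ERCC3, the sum was 2730, 2713 and 2691 with vehicle and 2031, 2105 and 2072 with DOX (log2 change -0.39, SE 0.03). At 162 to 164 Mb of chromosome 5, with HMMR and CCNG1, it was 1388, 1331 and 1354 against 962, 940.3 and 918 (-0.53, SE 0.04), and at 62 to 64 Mb of chromosome 6, with PTP4A1 and PHF3, 1697, 1818 and 1822 against 1243, 1275 and 1224 (-0.51, SE 0.04). In each, the DOX libraries lay below all vehicle libraries, while only 6 of 48, 2 of 17 and 8 of 44 regions were themselves closing. By chromosome, the opening share was lowest on chromosome 19 (4.90%) and highest on chromosome 5 (15%), and the median change on chromosome X was -0.23.

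**Figure D5:**
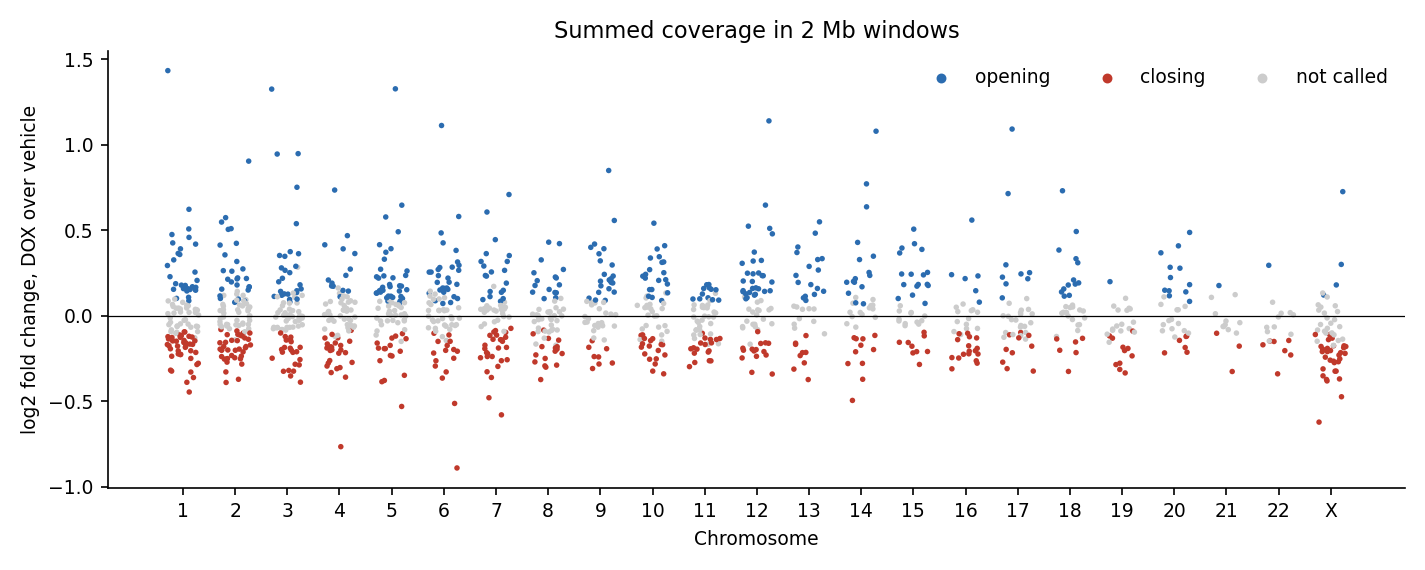
Log2 fold change of DOX over vehicle of the summed coverage in 2 Mb windows (points) of the autosomes and X, with called windows in colour. Positive changes reach 1.43 and negative ones -0.89, and the windows above 1 are all opening.

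Genes of adhesion and mesenchymal function were among those with opening neighbourhoods. In a list of 31 matrix, integrin and laminin genes, all with a tested neighbourhood, 4 were opening and 0 closing, beside the 3.13% and 0.268% of all neighbourhoods, and 49 of 288 regions were opening (17.0%), against 10.3% of the regions near all genes. They were ITGA5, the fibronectin receptor subunit (144, 155 and 138 in vehicle against 339.9, 353 and 334 with DOX), COL4A2, of basement membrane collagen (232, 194 and 197 against 488, 419.9 and 397), COL1A2, of type I collagen (70.4, 72.9 and 68.4 against 141, 146 and 149), and, named after its values were seen, FN1, fibronectin (64.2, 56.0 and 80.2 against 139.6, 131 and 128). Their log2 changes were 1.21, 1.07, 1.03 and 1.03. In the mesenchymal list, 2 of 10 neighbourhoods were opening. That of PRRX1, a mesenchymal homeobox gene, had 67.3, 64.0 and 61.8 against 239, 199 and 208 (log2 change 1.72, SE 0.11), and that of TCF4, an E-protein gene, 37.9, 30.1 and 40.8 against 83.4, 66.9 and 76.3 (1.09, SE 0.16). None of the promoter regions of ITGA5, COL4A2, COL1A2, FN1 and TCF4 was called, and PRRX1 had none. In axon guidance, 2 of 22 were opening, SEMA3A, a secreted semaphorin (148, 182 and 154 against 364, 324 and 349), and PLXNA4, a semaphorin receptor (227, 209 and 219 against 512, 419 and 457). With distal regions alone, ITGA5 (0.51), COL4A2 (0.97), COL1A2 (0.85), SEMA3A (0.91) and PLXNA4 (0.78) stayed above 0 but passed under 2-fold. So did ITGA5 (0.73), COL1A2 (0.84) and SEMA3A (0.97) with the mean over bins and SEMA3A (0.62) with the GC trend removed. With 2 to 4 called genes a list, nothing particular to these lists is read from the counts.

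In the other 13 lists, no neighbourhood passed. Over the 16 lists, 6 promoters were closing, of which 5 are given here, where the promoter of a gene is its promoter region with the highest coverage. They were SPARC, a matrix glycoprotein, from 25.4 ± 2.99 to 4.42 ± 0.462 (SD, n = 3, log2 change -2.55), CLDN4, a tight junction claudin, from 261 ± 17.9 to 109 ± 3.89 (-1.27), and NCAM1, a neural adhesion molecule, from 34.9 ± 9.59 to 10.4 ± 2.48 (-1.68). NUPR1, a stress-response regulator, went from 22.6 ± 5.01 to 7.18 ± 1.85 (-1.69), and IRF9, a subunit of the type I interferon (IFN) response factor ISGF3, from 63.2 ± 4.98 to 30.4 ± 4.27 (-1.05). At these 5, the 3 DOX values lay below the 3 vehicle values. No promoter in this sense was opening, and 0.683% of all 12441 gene promoters were opening and 0.868% closing. Of all 14475 promoter regions, 1.42% were opening and 1.26% closing. Weaker promoter regions of list genes, at other start sites, were opening in 6 cases and closing in 6. At LIMA1, an actin-binding protein, such a region had 6.95, 5.42 and 19.3 with vehicle and 48.5, 64.1 and 59.1 with DOX (log2 change 2.68). ACTN1, an actin cross-linker, had one of each direction, with log2 changes of 2.74 and -2.19. These were named after their values were seen. Without the number of weaker promoter regions, nothing particular to the lists is read from their counts.

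Among regions near the genes of each list, 16.8% were opening and 9.13% closing for the Hippo pathway and YAP targets, 3.95% and 11.8% for the amino acid and mitochondrial stress response, 11.8% and 1.18% for the AP-1 family, and 5.60% and 3.20% for the type I IFN list, against 10.3% and 4.37% near all genes. The shares were 10.6% and 6.38% for TGF-beta and BMP, 5.88% and 6.42% for cell polarity, 12.8% and 5.72% for actin cytoskeleton signalling, 12.6% and 2.75% for epithelial identity, 8.82% and 2.94% for neuroendocrine and neural genes, 10.4% and 6.67% for stemness, 10.1% and 1.83% for the BAF complex, 9.05% and 6.03% for nuclear receptors and 12.1% and 4.26% for lineage transcription factors. The numbers of regions per list ran from 67 to 367, and nothing particular to a list is read from these shares.

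The promoters of 6 genes of interest to the study had lower coverage with DOX, and none reached a 2-fold change at its highest bin. MUC1 had 180.4, 178 and 153 with vehicle and 122, 130.0 and 104 with DOX (log2 change -0.54, adjusted p = 6.48e-06). Since the hairpin targets RNA, this value is no measure of the knockdown. ARID1A, a BAF subunit, had 90.1, 105 and 113 against 48.3, 64.4 and 65.5 (-0.76), and EGR1, an immediate early factor, 444, 450.1 and 514 against 313, 317 and 292 (-0.60). JUN, of AP-1 (-0.43), NOTCH1, a receptor (-0.29), and LY6E, a GPI-anchored protein (-0.55), were lower as well, and the median of all 12441 promoters was -0.39. The direction was not the same under all scalings, since JUN (0.068) and EGR1 (0.031) were above 0 with loess offsets, and NOTCH1 (0.0086) with the GC trend removed. Read as the mean over its bins, the EGR1 region changed by -1.15, past 2-fold. By neighbourhood, NOTCH1 was at 0.32, JUN at 0.14, ARID1A at -0.18, EGR1 at -0.52 and LY6E at -0.68, and none was called. With distal regions alone the values were 0.41, -0.35, -0.18 and -0.88, and LY6E had too few for a fit. Single regions of these neighbourhoods were called. Of the 9 near LY6E, 3 were closing and 1 opening, and the strongest, 1.83 kb from the TSS, had 126, 120.0 and 131 with vehicle and 20.4, 24.8 and 22.6 with DOX (log2 change -2.43, SE 0.15). Near JUN 4 of 16 were opening and 1 closing, near NOTCH1 1 of 7 was opening, near EGR1 1 of 5 was closing and near ARID1A 0 of 6 were called.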

How the data were processed

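Accessibility was measured in 6 DU-145 libraries, and BT-549 libraries were not used here. The authors used bwa-mem for alignment to GRCh38, Picard to remove duplicates and MACS2 2.2.7.1 to call peaks per replicate at a q-value of 0.05. The merged peaks found by them in 3 or more replicates were cut into 100-bp bins. Values as deposited are estimated counts, namely mean fragment coverage per base of each bin without scaling for depth. Only 4.22% are whole (within 1e-09), and they were rounded for the count tests, although the design had assumed whole counts. The authors' peak lists also give each peak's fold enrichment (a ratio to local background) with -log10 p and q values. Peak presence alone was used, and since the peaks come from the same reads it is no independent readout.

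A region is a contiguous run of bins, read at the bin with the highest mean over the 6 libraries. Regions, gene neighbourhoods and windows were tested with edgeR 4.0.16 (R 4.3.3) by the quasi-likelihood test with robust dispersions, TMM factors and Benjamini-Hochberg adjustment, with a total of at least 10. The study used the DESeq2 Wald test, here an alternative (DESeq2 1.42.0). Other alternatives were RLE factors, library totals, loess offsets (limma 3.58.1, 3 iterations on log2 of the value plus 0.5), removal of the GC trend, filters, cutoffs, other values per region, window sizes, the replicate block and leaving out each library. On simulated data with 200 changed features, an adjusted p under 0.05 with no fold threshold recovered 76% at regions, 98% at neighbourhoods and 100% at windows. Of the features called, 4.40%, 5.77% and 3.38% were false. The simulation had a single fixed dispersion, and the stricter thresholds of the region and neighbourhood calls were not simulated. TSSs came from GENCODE 44, and motif words were searched in 300 bp around the highest bin. No 2 libraries shared more than 0.326% of their values.

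The regions named are the 6 promoters and 8 distal regions per direction with the largest change, a mean of at least 50 in the higher group, no overlap between groups and 1 region per gene. Also named are the 8 neighbourhoods, 4 clusters and 3 windows per direction with the smallest p or the most regions, the 6 genes, and up to 3 called genes per list and direction. A few of these regions and genes are not reported here. The members, lists, motifs and genes were chosen with earlier results of these data known, and the lists were written from general knowledge.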

Additional observations from a re-analysis of the deposited data

How the results depend on the processing

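The direction and call of each of the 28 regions chosen by rule and of the 6 named windows remained under all alternatives run for them. They had been chosen for the largest changes or the smallest p, so this does not speak for the other calls. The number of opening regions (9204) fell to 3002 with DESeq2, 5736 with the GC trend removed and 3462 with the mean over the bins of a region, and was 14838 at an adjusted p under 0.01 with a 2-fold change and 21993 at 0.05 with no fold threshold. The number of closing regions (3650) was 1938 with DESeq2, 2342 with the mean over bins and 19030 at 0.05 with no fold threshold. Leaving out 1 library gave 5745 (without vehicle replicate 2) to 8154 opening and 2877 to 3320 closing regions, from fewer samples. RLE factors, library totals, loess offsets and both filters kept both counts within 1.5 times. Closing neighbourhoods (24) were 37 with the GC trend removed and 155 of 5170 with distal regions only, beside 293 opening. With 1 Mb windows, 707 and 726 of 2370 were opening and closing, since more windows were tested. Reversed changes were those of the promoters of JUN (0.068) and EGR1 (0.031) with loess offsets and of NOTCH1 (0.0086) with the GC trend removed, and of the JUN neighbourhood (-0.35) with distal regions only. Except where the number tested or the samples differ, the cause was not tested. Of the named neighbourhoods, 352 values kept their call and 19 passed under the threshold in the same direction. FN1 (0.89) and TCF4 (0.92) did so without vehicle replicate 2, and COL4A2 (0.99) without DOX replicate 1. The promoter share differed by -8.89 to -8.22 points and the AP-1 share by 3.66 to 3.82 points without 1 library, where the smallest exact p is 0.2.

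Deviations of same-numbered vehicle and DOX libraries correlated at 0.02, 0.01 and -0.01 across regions. These values gave no sign of a pairing by replicate number, but they cannot exclude one. With the replicate number as a block, 8834 regions were opening and 3493 closing, and the block changed no call of a named feature.

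Rounding of low values and the depth of the vehicle libraries limit regions near 0, where fitted changes depend on the prior count. All intervals cover the spread between 3 libraries only. Nearest genes are set by distance, and a region's target gene was not measured.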

Other observations

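Regions were also counted by the nearest protein-coding TSS at any distance, where 11.6% of all regions, and 19.1% of those beyond 100 kb, were opening. The genes given here were chosen after their values were seen and stand for no common function. SOX9, a transcription factor of cartilage and epithelial progenitors, had 20 opening and 0 closing of 44 regions, up to 932 kb from its TSS and in part within the chromosome 17 window of KCNJ2. At 270 kb beyond its TSS, coverage was 1.58, 4.76 and 1.86 with vehicle and 59.2, 53.2 and 44.5 with DOX. At 697 kb before it, coverage was 20.2, 15.1 and 14.2 against 117, 105 and 103. The next counts were those of AKAP6, a kinase anchoring protein, with 18 opening and 3 closing of 94 regions, and INHBA, the activin A subunit, with 16 opening and 1 closing of 35. MAST4, a kinase gene, had the most closing regions, 8 of 34, beside 7 opening ones.

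The next regions, too, were picked after their values were seen, and nothing about a group of genes is read from them, since 4.61% of all regions were closing. The promoter of SFTPB, surfactant protein B, went from 88.3, 83.8 and 78.3 with vehicle to 17.9, 20 and 12.2 with DOX, a log2 change of -2.30 (SE 0.18). That of SFTPD, surfactant protein D, went from 70.0, 69.7 and 54.1 to 24.8, 16.9 and 17.2, a log2 change of -1.77 (SE 0.18). The DOX values lay under every vehicle value at both. A region 7.43 kb from SFTPB was opening, from 19.5, 15.1 and 21.8 to 49.0, 37.5 and 33.9. A region 16.9 kb from the TSS of NKX2-1, the lung and thyroid homeobox factor, in an intron of SFTA3, went from 222, 198 and 198 to 66.2, 68.3 and 60.2. A region 2.54 kb from NKX2-8 went from 53.3, 79.2 and 61.2 to 6.56, 2.71 and 5.44. Each of these 2 homeobox genes also had 1 opening region, at 52.1 kb and 32.8 kb, and the median change over their 12 and 11 regions was -0.10 and 0.77. A region 5.59 kb from CEBPD, a CCAAT/enhancer-binding protein gene, went from 83.0, 77.7 and 64.2 to 2.91, 3.18 and 6.22.

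The RFTN1 and KITLG loci held regions of both directions. In RFTN1, closing regions at 25.7 kb (38.2, 38.3 and 39.8 against 6.17, 5.40 and 4.91) and 6.89 kb from the TSS accompanied the promoter, while a region at 34.0 kb was opening (11.8, 15.5 and 9.83 against 44.6, 33.7 and 32.4). At KITLG, 4 regions 160 to 345 kb from the TSS were opening, beside the 6 closing ones within the gene. No cause was tested for any of these.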
